A study of Homo sapiens with 12 samples.

Results

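The 6 libraries described here came from cells labelled Hep-3B, a human hepatoma line, out of 12 libraries in the series, and all 6 were used. In 3 of them the cells had received a negative-control siRNA, and in the other 3 an siRNA against ARD1 (siARD1). ARD1 is an older name of NAA10. The remaining 6 libraries hold the same pair of treatments, 3 libraries each, in Huh-7, a second hepatoma line, and are used only to test where the responses differ. The labels give neither the time after transfection nor the siRNA sequence, and they do not say whether the numbered replicates were separate cultures. The question was which transcripts moved when ARD1 was lowered, and what those transcripts had in common in level, base composition, length and class.

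NAA10 is the catalytic subunit of NatA, the ribosome-bound complex that acetylates the N termini of many proteins once their first methionine has been removed. NAA15 anchors NAA10 to the ribosome, NAA16 can take the place of NAA15, HYPK binds the complex, and NAA50 is an acetyltransferase of its own that sits on the same anchor. The enzymes NatB and NatC act on other N-terminal sequences. The reaction takes place on proteins, so a table of RNA counts shows its consequences for transcript levels and not the acetylation itself.

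Total counts ran from 17340075 to 25960237 per library over the 25720 genes listed. Levels are given in CPM, counts scaled to library size with TMM factors. A defining check went against the label. Hep-3B is known for secreting albumin and alpha-fetoprotein, whereas ALB stood at 0.564 to 6.20 CPM and AFP at 0.260 to 1.97, against at least 10689 and 3182 CPM in Huh-7. Of 16 hepatocyte and hepatoma markers, 6 were under 1 CPM in the mean over all 6 libraries, while FGB, HNF4A and FOXA2 were present. The summed level of those 16 markers was 603 to 703 CPM in the controls and 411 to 458 after siARD1, with 0 higher and 7 lower of 12 tested. FGB made up much of that sum, at a mean of 325 CPM in the controls and 137 after siARD1. HNF4A, FOXA2, CEBPA, APOB and GPC3 were tested and were not among the 7. Markers of leukocytes summed to 1.66 to 3.48 CPM, with CD3E and LYZ at 0. Of the fibroblast markers, COL1A2 was at 0 and LUM at 104 to 145 CPM. The part of these marker differences in the results was not tested, and the libraries are called by their label.

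A change means an adjusted p under 0.05 in edgeR's quasi-likelihood test, with Benjamini-Hochberg adjustment over all 15762 genes tested. By that rule 5070 genes (32.2%) changed, 2654 higher (16.8%) and 2416 lower (15.3%), with more lower than higher under upper-quartile factors (2341 higher, 2869 lower). Of the 5070, 4904 also had groups of 3 that did not overlap. Non-overlap by itself was seen in 7099 genes (45.0%). Most of the changes were small. Of the changed genes 3685 (72.7%) moved by less than 1.5-fold, 961 by 1.5- to 2-fold and 424 by at least 2-fold. At least 4-fold changes numbered 36, with 23 higher and 13 lower.

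NAA10 (ENSG00000102030, GRCh38 chromosome X, 153929242 to 153935223) stood at 48.4, 58.7 and 58.7 CPM in the controls and at 10.9, 15.6 and 14.4 after siARD1. The groups lay far apart, and 24.9% of the control level was left (log2 fold change -2.01, SE 0.12, edgeR adjusted p = 1.36e-07). NAA50 stood at 161, 132 and 141 CPM in the controls and at 244, 256 and 265 after siARD1 (0.81, SE 0.07, edgeR adjusted p = 1.16e-06). The anchor gene NAA15 stood at 44.4, 31.0 and 35.3 CPM against 52.5, 50.8 and 62.6 (0.58, SE 0.12, edgeR adjusted p = 0.00321). Both partner genes were therefore higher in every siARD1 library than in any control. The spare anchor NAA16 stood at 13.7, 11.8 and 12.2 CPM against 14.95, 16.1 and 17.8 (0.37, edgeR adjusted p = 0.0172). HYPK values overlapped, at 10.2, 8.23 and 6.94 CPM against 7.99, 4.12 and 6.36, and its log2 fold change of -0.48 did not pass (edgeR adjusted p = 0.103). It passed without siARD1 library 1 (-0.69), whereas the call of NAA16 was lost without control 2, control 3 or siARD1 library 3. With the GC and length offset described below, NAA16 stood at 0.18 and did not pass (edgeR adjusted p = 0.212).

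Outside NatA, the NatC catalytic gene NAA30 rose from 31.7 to 49.9 CPM (0.66) and the histone-specific NAA40 fell from 29.2 to 21.3 (-0.45). In all, 4 of 13 tested subunit genes of the N-terminal acetyltransferases rose and 2 fell (3 and 2 with the offset), with a median log2 fold change of -0.01, as over all genes. The enzymes and factors that meet the nascent chain next (methionine aminopeptidases, N-myristoyltransferases, the nascent polypeptide-associated complex and the signal recognition particle) rose in 3 of 15 and fell in 5. The genes that fell were BTF3 (-0.30), METAP1D (-0.46), SRP68 (-0.26), NACA (-0.21) and NMT1 (-0.21), but with the offset NACA, NMT1 and SRP68 did not pass. The call of NACA was also lost without control 2, control 3 or siARD1 library 2, and that of NMT1 without control 3, siARD1 library 1 or siARD1 library 2. Genes of the N-degron pathways, whose ligases read N termini, rose in 4 of 19 (21.1%) and fell in 1 (5.26%), with a median of -0.03. In all, 26.3% of them were called, against 32.2% of all genes tested. They rose in 2 and fell in 4 with the offset described below, and rose in 3 and fell in 4 with upper-quartile factors. Among them XIAP, an inhibitor of caspases, rose from 50.02 to 66.3 CPM (0.41), and ZYG11B, which reads N-terminal glycine, rose by 0.39. The member that fell, MARCHF6 (-0.16), did not pass once any 1 of the 6 libraries was left out but passed with the offset (-0.38, edgeR adjusted p = 0.000119), and without control 2, control 3 or siARD1 library 1, 2 members rose in place of 4.

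**Figure D1:**
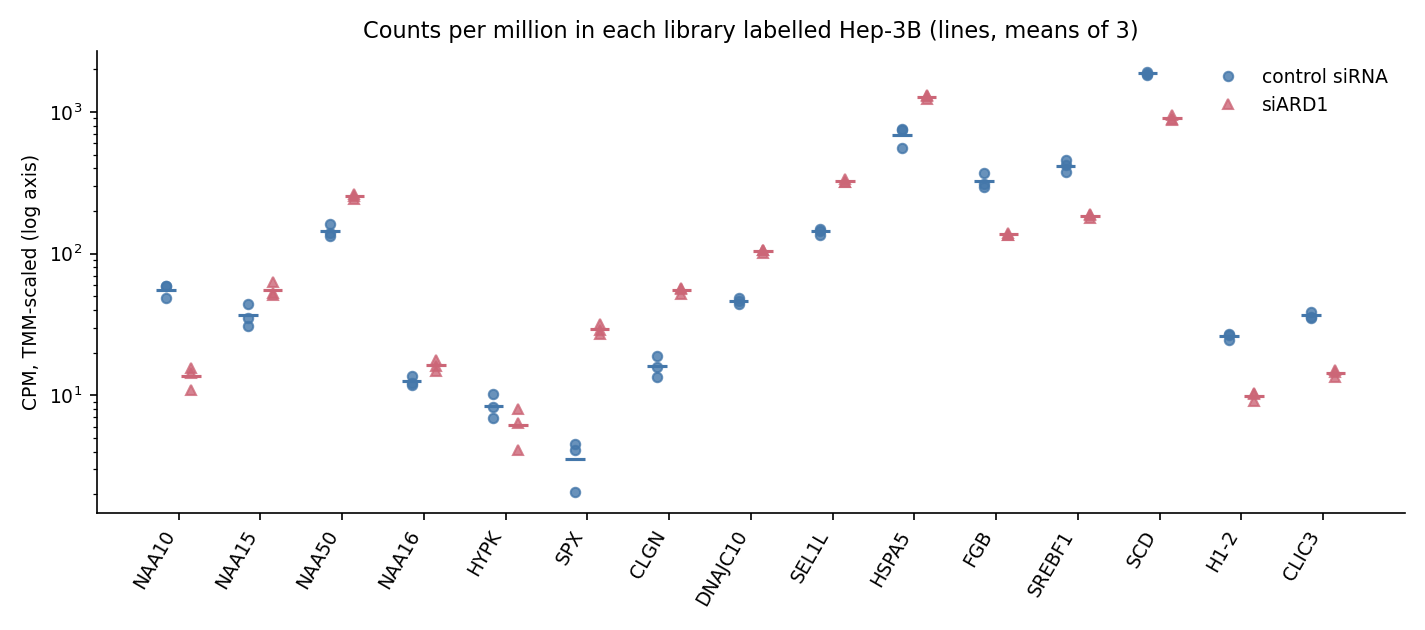
TMM-scaled CPM (log axis) of 15 genes in each of the 6 libraries labelled Hep-3B, circles for control siRNA and triangles for siARD1, with lines at the means of 3. NAA10 drops from 48.4 to 58.7 CPM to 10.9 to 15.6 CPM, the partner genes NAA15, NAA50 and NAA16 lie higher without overlap, and the values of HYPK overlap.

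The coding sequence was also sorted by its second codon, which decides in large part which enzyme a protein meets. Of 7049 tested genes whose second residue is of the NatA kind (Ala, Ser, Thr, Gly, Val or Cys), 1317 rose (18.7%) and 1209 fell (17.2%), with a median log2 fold change of -0.00. Of 2551 genes of the NatB kind (Asp, Glu, Asn or Gln), 529 rose (20.7%) and 420 fell (16.5%). Of the 3444 others, 671 rose (19.5%) and 579 fell (16.8%). These shares lie near those of all 13105 protein-coding genes tested, of which 19.2% rose and 16.9% fell.

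The chance of a call grew with expression. From the lowest to the highest quintile of mean level, 10.3%, 23.8%, 36.7%, 43.5% and 46.6% of genes changed, with more genes higher than lower in the lowest quintile (194 against 130) and in the fourth (766 against 605) and nearly equal numbers in the other 3. Of the 78 genes at 1000 CPM or more, 9 were higher and 36 lower (median -0.11). Across all genes, level and log2 fold change were barely related (Spearman rho 0.04 over 15762 genes). Among the 10 most abundant genes of each library the share of counts fell from 8.23, 8.86 and 8.75% in the controls to 7.76, 7.82 and 7.85% after siARD1, and the 3 siARD1 libraries lay below all controls. The exact two-sided permutation test over 6 libraries gave p = 0.1, the smallest it can give with 3 against 3.

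Of the 13 properties examined, base composition was most closely related to the direction of change. In the lowest quintile of transcript GC content (25.8 to 41.0%), 1193 of 3042 genes rose (39.2%) and 152 fell (4.997%). In the highest quintile (58.0 to 75.8%), 281 of 3042 rose (9.24%) and 666 fell (21.9%). Over 20 bins of equal size, the median log2 fold change fell from 0.33 at a median GC of 35.5% to -0.06 at 46.3%, and from there on it stayed between -0.05 and -0.10, with -0.10 at 65.8%. Spearman's rho between GC content and log2 fold change was -0.29 over 15207 genes and -0.31 within protein-coding genes, against -0.01 in Huh-7. All such coefficients here run across genes, which share libraries and depth and are not replicates, so no p is given.

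**Figure D2:**
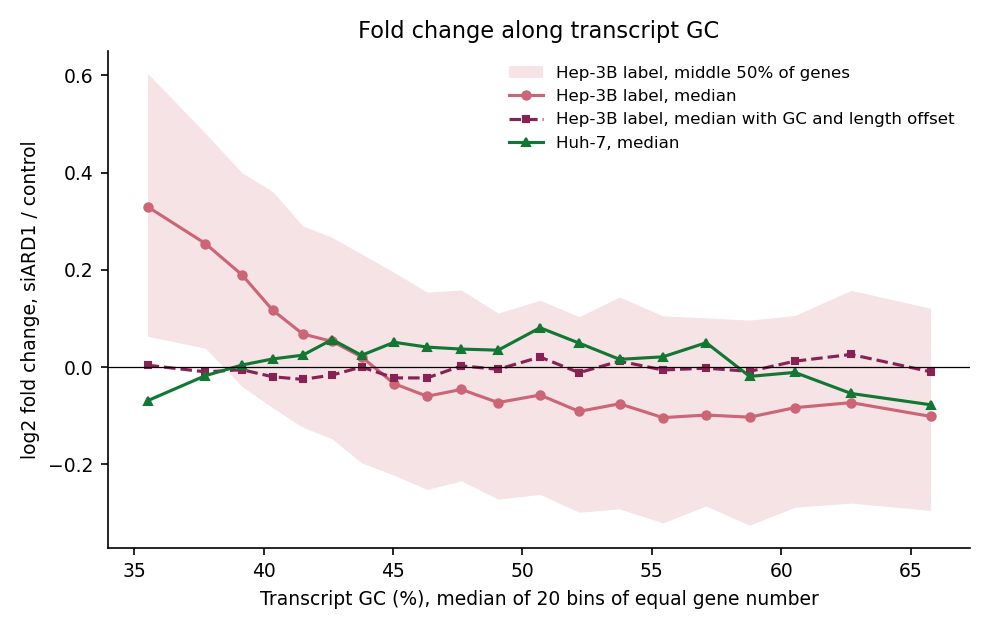
Median log2 fold change of siARD1 over control (vertical axis) in 20 bins of transcript GC content (horizontal axis, %), for the libraries labelled Hep-3B as deposited, the same with a GC and length trend taken out per library, and Huh-7. The shaded band holds the middle 50% of genes. The medians labelled Hep-3B fall from 0.33 to -0.10, the Huh-7 medians begin and end near -0.07 and -0.08, and the dashed line stays near 0.

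**Figure D3:**
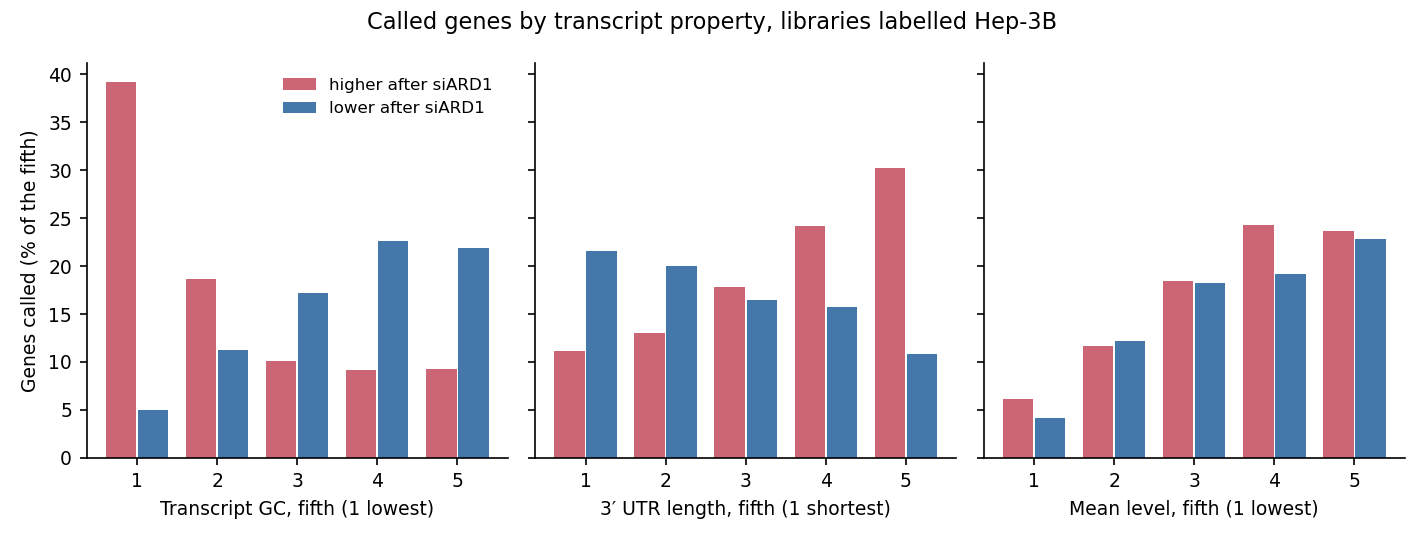
Share of genes called higher and lower after siARD1 (% of each quintile) by quintiles of transcript GC content, 3′ UTR length and mean level in the libraries labelled Hep-3B. In the quintiles of lowest GC content and longest 3′ UTR more genes were called higher (39.2 and 30.2%) than lower (4.997 and 10.8%), while the calls by level grew from 10.3 to 46.6% in both directions together.

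Length went the same way through the 3′ untranslated region (UTR), the stretch after the stop codon where many RNA-binding proteins and microRNAs dock. In the shortest quintile of 3′ UTRs (up to 276 bases) 292 of 2613 genes rose (11.2%) and 564 fell (21.6%), and in the longest (2666 bases or more) 790 rose (30.2%) and 282 fell (10.8%). Spearman's rho with log2 fold change was 0.19 for 3′ UTR length, 0.08 for 5′ UTR length and 0.01 for coding length. It was 0.14 for the whole transcript, 0.16 for the gene's span and 0.04 for the number of exons. Among parts of the transcript, the 3′ UTR had the length most closely related to the change in the counts as deposited. With the trend on GC content and length taken out, 5′ and 3′ UTR length were alike (0.0701 and 0.0678). GC content of the 3′ UTR (-0.29), of the coding sequence (-0.27) and of the third codon position (-0.26) were related to the change alike, and the first and last of these go together across genes (rho 0.76).

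The 2 properties were also crossed. Genes with a 3′ UTR in the lowest quintile of GC content and the longest quintile of length rose in 229 of 391 and fell in 9 (median log2 fold change 0.33). Genes with equally low GC content but the shortest 3′ UTRs rose in 111 of 582 and fell in 73 (median 0.04). At the other corner, high GC content with the shortest 3′ UTRs, 49 of 697 rose and 192 fell (median -0.14). The GC content of the promoter, in contrast, had a rho of 0.06 with the change over 10599 genes, but 0.13 once a trend on transcript GC content and length was taken out as described below. In that fit 482 genes of the highest promoter GC quintile rose and 233 fell, against 264 and 434 in the lowest.

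Per library, genes of the lowest GC quintile held 15.4, 14.4 and 14.9% of counts in the controls and 17.2, 17.2 and 17.6% after siARD1. Those of the longest 3′ UTRs held 17.8, 17.5 and 17.6% against 18.8, 18.9 and 18.8%. In both, the 3 siARD1 libraries lay above all controls (exact two-sided permutation p = 0.1 each, the smallest possible). In Huh-7 the lowest GC quintile held 16.7, 16.3 and 16.7% against 16.2, 16.7 and 15.6%. The difference between the lines in this share was 2.83 percentage points, with an exact permutation p = 0.01 over 400 arrangements and a Benjamini-Hochberg adjusted p of 0.0533 over the 16 shares compared. For the middle and the fourth GC quintile the line difference was -1.14 and -1.76 percentage points (adjusted p = 0.04 each), and for the longest 3′ UTRs 1.39 (adjusted p = 0.08).

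**Figure D4:**
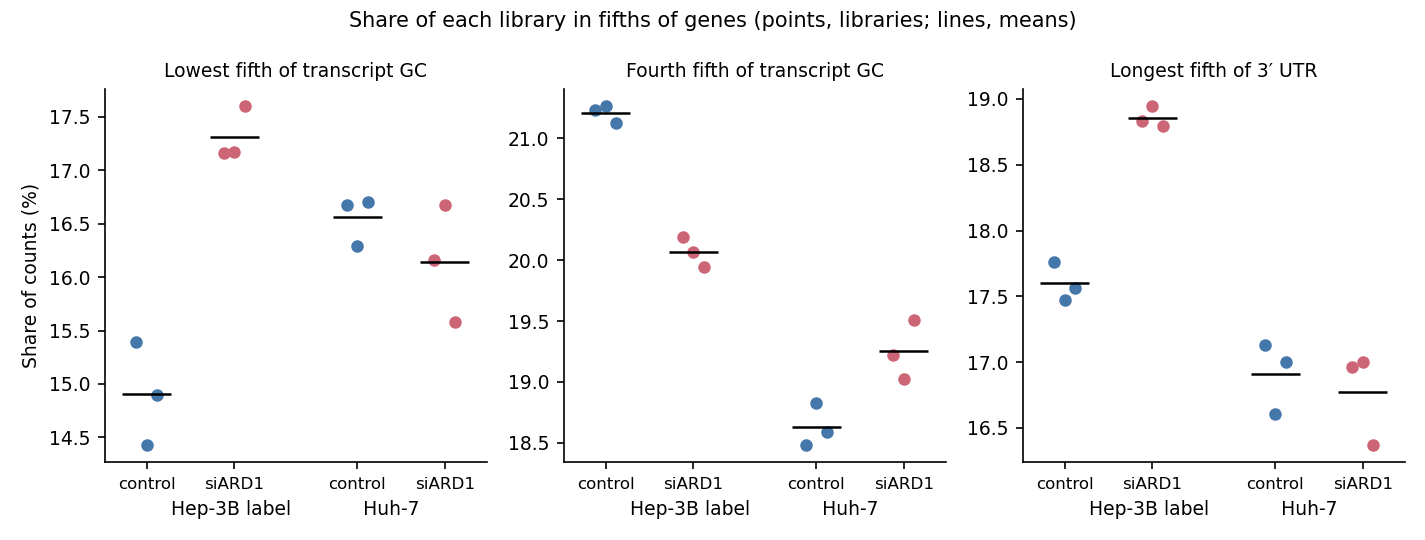
Share of each library's counts (%) held by genes of the lowest GC quintile, the fourth GC quintile and the longest 3′ UTR quintile, one point per library and lines at means of 3; axes do not start at 0. In the libraries labelled Hep-3B the siARD1 points lie above the controls in the first and last panel (17.2 to 17.6% against 14.4 to 15.4%, and 18.8 to 18.9% against 17.5 to 17.8%) and below them in the middle panel, whereas in Huh-7 they lie above the controls in the middle panel and overlap them in the others.

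The GC relation also varied between replicates. Each library's rank correlation across genes, between GC content and its deviation from the mean of the 6, was 0.21, 0.34 and 0.14 in the controls and -0.22, -0.15 and -0.35 after siARD1. The corresponding values for 3′ UTR length were tighter, at -0.16, -0.17 and -0.12 against 0.14, 0.17 and 0.16. With each group made of its own 3 libraries, a GC dependence of library preparation and one of the treated cells cannot be told apart. Every count was also computed with each library's smooth trend on GC content and length taken out as an offset. With that offset 4628 genes changed (29.4%), 2397 higher (15.2%) and 2231 lower (14.2%). They included 3617 of the 5070 (71.3%) with the same sign and none with the opposite sign, and 545 genes rose and 524 fell in the lowest GC quintile. Below, a count "with the offset" refers to this fit.

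Chromosomes followed their base composition. Over 23 chromosomes, the median GC content and median log2 fold change of their genes had a rho of -0.89, and -0.21 with the offset. On chromosome 13, with a median GC content of 42.2%, 67 of 241 genes rose and 16 fell, and 35 and 18 with the offset. On chromosome 19, with a median of 58.6%, 93 of 1049 rose and 233 fell. Within chromosome 19, its 178 tested zinc finger genes with ZNF names, of median GC content 43.2%, rose in 32 and fell in 15, while its 871 other genes, at 59.8%, rose in 61 and fell in 218. With the offset the zinc finger genes rose in 18 and fell in 14, and the 871 rose in 105 and fell in 119. The share of zinc finger genes that rose was near that of all genes tested, and the contrast lies in the 871.

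By class, 2522 of 13105 protein-coding genes rose and 2215 fell, and 106 of 2095 long non-coding genes rose and 157 fell (median -0.09). Fewer long non-coding genes were called in all (12.6% against 36.1%), and most were weakly expressed. At 3 to 10 CPM, 33 of 379 long non-coding genes rose and 54 fell, against 255 and 237 of 1791 protein-coding genes. At 10 to 30 CPM, 41.2% of 119 long non-coding genes were called (16 higher, 33 lower), against 36.7% of protein-coding genes. At 30 to 100 CPM, 6 of 32 long non-coding genes were higher and 2 lower (median 0.05), but 5 and 4 with the offset (median -0.05). Over the whole class, 94 rose and 148 fell with the offset. Long non-coding RNAs together held 1.03, 1.08 and 1.02% of counts in the controls and 0.992, 1.02 and 1.02% after siARD1. These shares overlapped (exact permutation p = 0.2). Among single long non-coding genes the best supported included LINC00662, at 55.6, 53.5 and 53.04 CPM in the controls and 98.9, 97.3 and 99.1 after siARD1 (0.86, SE 0.06, edgeR adjusted p = 2.49e-07). LINC00649 went the other way, at 34.3, 36.2 and 33.1 CPM against 22.9, 21.4 and 21.2 (-0.66, edgeR adjusted p = 2.57e-05). LINC00942 fell from 148 to 88.7 CPM (-0.74) and THAP9-AS1 rose from 25.1 to 40.5 (0.69). Of the tested genes, 8921 overlap an annotated gene on the other strand, LINC00662, LINC00649 and THAP9-AS1 among them. The kit was directional, but the strand setting of the counting is not given, so reads of such partners may be mixed.

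For comparison with the lists that follow, 16.8% of all genes tested rose and 15.3% fell, and 15.2% and 14.2% with the offset. Genes that build ribosomes fell at several steps. Ribosome biogenesis factors, which cut and fold ribosomal RNA, fell in 21 of 47 tested and rose in 1, with a median log2 fold change of -0.14 (with the offset 16 fell and 2 rose). BMS1, a GTPase of the small subunit processome, stood at 74.7, 78.0 and 79.7 CPM in the controls and at 56.2, 52.7 and 51.6 after siARD1 (-0.53, SE 0.07, edgeR adjusted p = 2.35e-05). NOB1, the nuclease that makes the 3′ end of 18S rRNA, stood at 57.7, 57.4 and 56.6 CPM against 41.6, 41.2 and 40.9 (-0.47). Neither gene had overlapping groups. UTP4 (-0.53), PES1 (-0.33), the polymerase I subunit gene POLR1C (-0.52) and nucleostemin, GNL3 (-0.27), fell as well. DDX21, an RNA helicase of nucleolus and nucleoplasm, was the member that rose, from 222 to 287 CPM (0.37). Without control 3 or siARD1 library 1 the members that fell numbered 12 and 11, and without control 1, control 3 or siARD1 library 2, 2, 3 and 3 rose.

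The ribosomal protein genes themselves fell too. Of 81 cytosolic ribosomal protein genes 34 fell and 0 rose (median -0.19), led in p by RPS14 and RPL15, and 27 fell and 1 rose with the offset. Without siARD1 library 1 or 2 the genes that fell numbered 22 and 20. Their share of counts was 4.51, 4.08 and 4.26% in the controls and 3.92, 3.57 and 4.08% after siARD1. The lowest control and the highest siARD1 library overlapped in that share (exact permutation p = 0.2). Calls depended on level: in the highest quintile of level 23.7% of genes rose and 22.9% fell. Of the 78 genes at 1000 CPM or more, 9 rose and 36 fell (46.2%). Of 81 mitochondrial ribosomal protein genes 26 fell and 2 rose (median -0.20), and 25 fell and 3 rose with the offset. MRPS30, a gene of low GC content (34.5%), fell from 75.4 to 54.6 CPM (-0.46, and -0.83 with the offset). Without control 3 or siARD1 library 3, 17 and 16 of them fell, and without control 2 or siARD1 library 3, 1 rose.

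RNA helicases and splicing regulators also fell more often than they rose. Of 55 genes of the DEAD and DEAH box families, enzymes that unwind RNA, 17 fell and 2 rose (median -0.12), and 18 fell and 1 rose with the offset. DDX41 stood at 64.4, 63.3 and 67.4 CPM in the controls and at 41.9, 41.6 and 42.6 after siARD1 (-0.63, SE 0.07, edgeR adjusted p = 6.14e-06). The groups did not meet. DDX17 fell from 472 to 340 CPM (-0.47). Of 44 SR and hnRNP proteins and their partners, which choose splice sites, 13 fell and 5 rose, and 21 fell and 2 rose with the offset. SRSF3 (-0.50), SRSF7 (-0.46) and SRSF5 (-0.48) fell, whereas SRSF1 rose from 11.9 to 28.8 CPM (1.26) and HNRNPH3 from 120 to 173 (0.53). Without control 2 or siARD1 library 3, 3 rose in place of 5.

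Of 35 peroxisome genes tested, 13 were called lower and 3 higher (median -0.14), and 14 lower and 1 higher with the offset. EHHADH, an enzyme of peroxisomal fatty acid oxidation, stood at 24.2, 25.1 and 21.8 CPM in the controls and at 11.8, 14.8 and 14.1 after siARD1 (-0.80, SE 0.11, edgeR adjusted p = 4.38e-05). Mevalonate kinase, MVK, stood at 24.99, 17.5 and 17.4 CPM against 9.66, 10.7 and 9.75 (-0.99, edgeR adjusted p = 6.51e-05). Groups did not overlap in either. The import receptor gene PEX5 (-0.40), the division gene PEX11A (-0.75), catalase, CAT (-0.31), and HSD17B4 (-0.30) also fell. AGPS, of ether lipid synthesis, rose by 0.33 but stood at 0.03 with the offset.

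Of 23 histone genes tested 15 fell and 1 rose (2 without siARD1 library 2), with a median log2 fold change of -1.22 (-1.16 with the offset), while the shares of counts held by all histone genes overlapped. They were 0.0903, 0.1001 and 0.0975% in the controls and 0.105, 0.0912 and 0.123% after siARD1 (exact permutation p = 0.4). The member that rose was H1-10, a linker histone gene made throughout the cell cycle, from 171 to 219 CPM (0.35, edgeR adjusted p = 0.000395). The genes that fell are mainly of the replication-dependent clusters, among them H1-2, at 24.8, 27.3 and 26.5 CPM against 9.09, 10.2 and 10.4 (-1.39), and H2BC12, from 73.5 to 51.2 (-0.52). Copies of these cluster genes are near-identical, so the reads given to each are uncertain.

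Genes of protein entry into the endoplasmic reticulum (ER) and of its N-glycosylation rose in 15 of 36 and fell in 2 (median 0.13). With the offset 17 rose and 3 fell. SEC63, a partner of the Sec61 channel, stood at 132, 134 and 132 CPM in the controls and at 195, 192 and 208 after siARD1 (0.58, SE 0.06, edgeR adjusted p = 3.80e-06). The oligosaccharyltransferase gene STT3B stood at 389, 378 and 362 CPM against 518, 536 and 536 (0.49, edgeR adjusted p = 9.44e-06). Both were without overlap. Its partner MAGT1 (0.55), the translocon-associated SSR3 (0.61), SEC61A2 (0.86) and the signal peptidase gene SPCS1 (0.36) rose, and the signal peptidase gene SEC11A (-0.30) and the glucosidase gene MOGS (-0.31) fell. Coats of the vesicles that leave the ER and the Golgi (COPII and COPI) rose in 6 of 40 and fell in 6.

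The RNA interference machinery, which the siRNAs themselves use in both groups, rose in 8 of 15 and fell in 1 (median 0.29). AGO2, the slicing Argonaute, stood at 226, 254 and 244 CPM in the controls and at 327, 300 and 299 after siARD1 (0.35, SE 0.06, edgeR adjusted p = 0.000484). DICER1 stood at 78.2, 76.5 and 73.1 CPM against 92.7, 90.6 and 94.7 (0.29, edgeR adjusted p = 0.00231). TARBP2, its RNA-binding partner, went down from 23.2 to 15.6 CPM (-0.57). The rises were smaller once the GC and length trend was taken out: with the offset 4 members rose and 1 fell, the median was 0.06 and DICER1 stood at 0.01.

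Nuclear pore and transport receptor genes rose in 14 of 47 and fell in 4, and with the offset rose in 10 and fell in 6. The exportin gene XPO1 stood at 255, 194 and 239 CPM in the controls and at 403, 376 and 404 after siARD1 (0.78, SE 0.08, edgeR adjusted p = 1.66e-05). KPNA4 (0.63) and TNPO1 (0.58), which encode import receptors, rose as well, although with the offset TNPO1 stood at 0.19 and did not pass. Those that fell were POM121 (-0.32), NUP85 (-0.26), NUP205 (-0.20) and KPNA6 (-0.17). The call of KPNA6 was lost without any 1 of the 6 libraries, that of NUP205 without control 3, siARD1 library 1 or siARD1 library 2, and that of NUP85 without siARD1 library 2. Centrosome genes with CEP names rose in 11 of 37 and fell in 2, and with the offset rose in 6 and fell in 5. Without control 2, control 3, siARD1 library 1 or siARD1 library 2, 1 CEP gene fell in place of 2.

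Clock genes had the largest median rise of the 23 lists examined, 0.30, with 6 of 19 higher and 3 lower (7 and 2 with the offset). The repressor gene BHLHE41 stood at 10.5, 11.6 and 12.8 CPM in the controls and at 25.6, 23.5 and 26.9 after siARD1 (1.13, SE 0.11, edgeR adjusted p = 2.10e-06). CLOCK rose from 46.0 to 76.0 CPM (0.72) and NR1D2 from 91.0 to 148 (0.70), while BHLHE40 fell from 203 to 150 (-0.44). The libraries' hour of collection is not given.

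**Figure D5:**
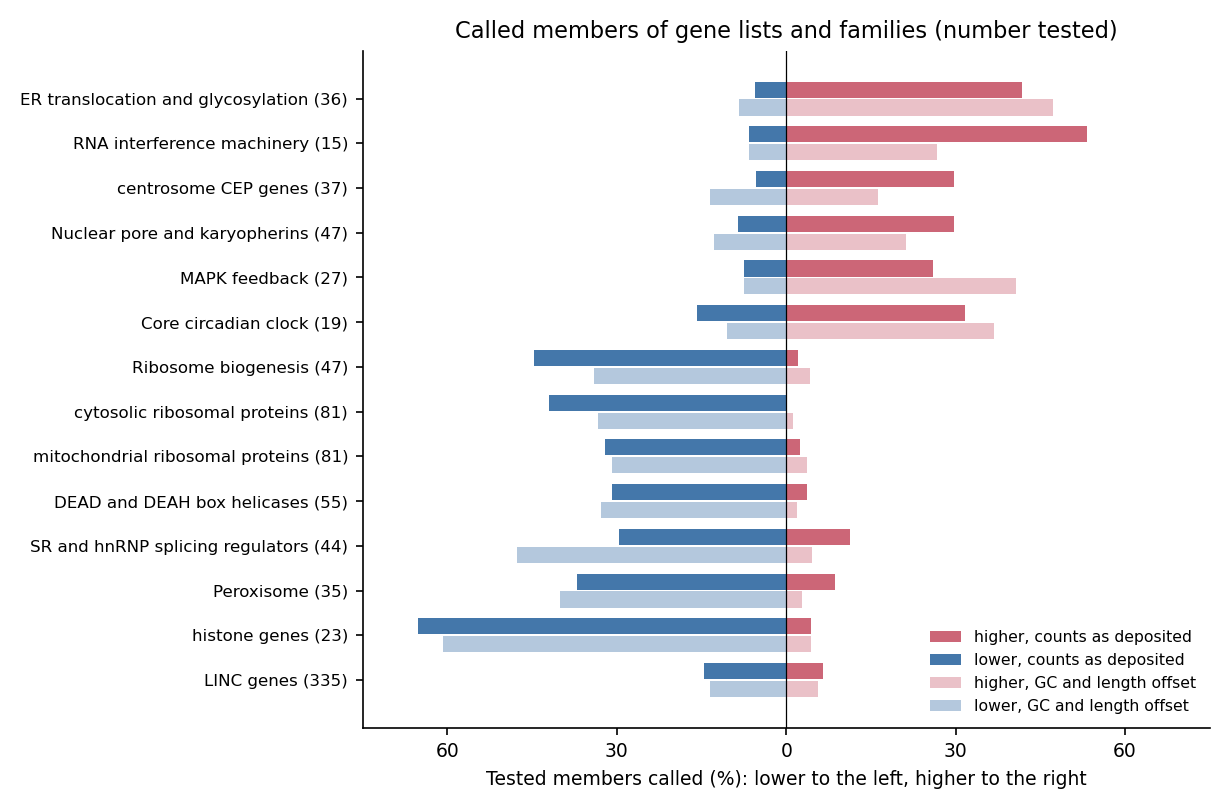
Share of tested members called higher (right) and lower (left) in 14 gene lists and name families, number tested in parentheses, from the counts as deposited (dark) and with the GC and length offset (pale). Ribosomal, helicase, peroxisome and histone genes lie mostly to the left and ER translocation genes to the right in both, while the rises of the RNA interference and CEP genes shrink with the offset.

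Promoters were searched for 18 motifs on both strands in RefSeq windows of GRCh38.p14, from 250 bases before to 50 after the start site, which 80.9% of the tested protein-coding genes had. Among genes with a window, 19.3% rose and 17.0% fell. Counts furthest from these shares among motifs in more than 1 tested gene were those of the ER stress element, with more rises, and of the YY1 site, with more falls. The ER stress element is known to be bound by the factors ATF6 and NF-Y in the unfolded protein response. It was searched as CCAAT and CCACG separated by 9 bases of any kind and was found in 27 of 35116 windows (0.0769%), in 16 tested genes. Of these 16, 9 rose and 1 fell, and 8 rose and 2 fell with the offset. The genes below were chosen for this motif after their values were seen. The stretches around the element of 6 of them are printed 5′ to 3′ on the gene's own strand, with the element in capitals (in reverse orientation it begins with CGTGG), since they show the same letters beside very different neighbours:
HSPA5, chr9:125241351-125241449, minus strand: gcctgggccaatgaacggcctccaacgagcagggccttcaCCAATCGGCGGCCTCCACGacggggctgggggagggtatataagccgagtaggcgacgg
CALR, chr19:12938359-12938442, plus strand: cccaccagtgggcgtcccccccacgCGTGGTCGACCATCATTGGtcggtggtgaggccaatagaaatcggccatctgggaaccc
XBP1, chr22:28800570-28800661, minus strand: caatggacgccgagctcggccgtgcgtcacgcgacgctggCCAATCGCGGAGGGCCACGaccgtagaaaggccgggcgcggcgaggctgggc
FICD, chr12:108515083-108515181, plus strand: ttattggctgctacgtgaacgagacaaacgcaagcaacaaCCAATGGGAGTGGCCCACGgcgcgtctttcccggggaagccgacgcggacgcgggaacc
SERP1, chr3:150546670-150546746, minus strand: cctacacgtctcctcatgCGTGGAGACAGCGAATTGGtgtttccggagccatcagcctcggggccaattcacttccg
CRELD2, chr22:49918514-49918612, plus strand: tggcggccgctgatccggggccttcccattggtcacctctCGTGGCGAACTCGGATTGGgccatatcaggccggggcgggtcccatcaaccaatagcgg

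HSPA5 encodes the main ER chaperone of the Hsp70 family. It stood at 558, 749 and 759 CPM in the controls and at 1292, 1236 and 1325 after siARD1 (0.90, SE 0.10, edgeR adjusted p = 0.000131), with a wide gap between the groups. CALR, the lectin chaperone calreticulin, stood at 730, 749 and 755 CPM against 980, 957 and 938 (0.36, edgeR adjusted p = 8.34e-05). FICD, which modifies the HSPA5 protein, stood at 2.48, 2.78 and 2.72 CPM against 4.95, 5.04 and 4.12 (0.82, edgeR adjusted p = 0.00252). XBP1, itself a regulator of this response, rose less, from 166, 175 and 177 CPM to 205, 204 and 202 (0.24, edgeR adjusted p = 0.00431). CANX (0.41), HSP90B1 (0.23) and PDIA6 (0.18) also rose. With the offset HSP90B1 no longer passed (edgeR adjusted p = 0.0867), and the call of PDIA6 was lost without control 2, siARD1 library 1 or siARD1 library 3.

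At 2 of the elements the same DNA lies between a pair of genes that are read in opposite directions. At the chromosome 3 element SERP1, which stabilises new membrane proteins, stood at 149, 119 and 112 CPM in the controls and at 172, 183 and 172 after siARD1 (0.47, edgeR adjusted p = 0.00114). Its neighbour EIF2A stood at 160, 160 and 173 CPM against 153, 138 and 149 (-0.16, edgeR adjusted p = 0.0578, and -0.29 with the offset, where it passed, as it did without control 1). At the chromosome 22 element the ER chaperone gene CRELD2 stood at 18.4, 16.0 and 16.9 CPM against 23.3, 20.8 and 20.7 (0.33, edgeR adjusted p = 0.0177). Its neighbour ALG12 overlapped between groups, at 15.3, 15.6 and 14.6 CPM against 14.3, 11.98 and 15.4 (-0.12, edgeR adjusted p = 0.437). The call of CRELD2 was lost without control 2 or siARD1 library 1. ZNF17 was the gene that fell (-0.55, edgeR adjusted p = 0.0352), a call that was lost without control 1, control 3, siARD1 library 1 or siARD1 library 3. TMEM120A, TRIM5, ERO1B and SYNPO hold the element and did not pass. Of 15919 genes tested in Huh-7 40.1% changed, and the difference between the lines passed in 29.7% of 17895. In Huh-7 the log2 fold change of HSPA5 was 0.12 and that of CALR -0.11, and that difference passed for both (edgeR adjusted p = 1.64e-05 and 0.000139). It also passed for SERP1, FICD, HSP90B1 and PDIA6. The difference did not pass for CANX, XBP1 and CRELD2 (edgeR adjusted p = 0.196, 0.0661 and 0.0595), and CANX rose in Huh-7 as well (0.28).

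The YY1 site, searched as one fixed string, was in 123 tested genes (0.436% of all windows), of which 17 rose and 39 fell, and 11 rose and 28 fell with the offset (median log2 fold change -0.09 in both). The sterol element TCACCCCAC was in 56 (0.430% of all windows), with 7 higher and 14 lower, and 12 and 13 with the offset. Several commoner motifs lay nearer to the shares of all genes. The ETS site CCGGAAGT was in 1017 (4.14% of all windows), with 166 higher and 215 lower. The cAMP response element TGACGTCA, a CREB site, was in 396 (1.85% of all windows), with 77 higher and 73 lower. The E-box CACGTG was in 1321 (7.26% of all windows), with 244 higher and 242 lower. The GC box GGGCGG, present in 45.0% of all windows, was in 81.1% of the genes that rose and 73.1% of those that fell. The ATF6 site TGACGTGG, without the spaced CCAAT box, was in 126 tested genes (0.729% of all windows), and 26 rose and 22 fell. A match is a string of letters and does not show binding.

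The largest changes differed by level. Among genes of 1 to 10 CPM, DHRS2 stood at 0.652, 0.638 and 0.437 CPM in the controls and at 3.57, 5.08 and 7.98 after siARD1 (3.28, SE 0.33, edgeR adjusted p = 5.73e-06). NGFR, a neurotrophin receptor, stood at 0.261, 0.290 and 0.582 CPM against 3.80, 4.56 and 2.35 (3.21), and the presynaptic gene PCLO at 1.13, 1.22 and 0.728 against 7.02, 10.9 and 5.32 (2.91). All 3 were low in every control library. Bands were cut on the mean over all 6 libraries, so DHRS2 and NGFR, under 1 CPM in every control, entered this band only through the siARD1 libraries. The size of their fold changes rests on those low controls. The largest falls of this band were ALB (-2.69), C4B (-2.01) and C4A (-1.97). ALB and C4B, at siARD1 means of 0.796 and 0.915 CPM, entered it only through the controls. C4A passed narrowly (edgeR adjusted p = 0.0488) and did not pass with the offset (edgeR adjusted p = 0.0742). C4A and C4B are alike in transcript GC content (58.4%) and 3′ UTR length (144 bases). How reads of such similar genes were counted is not given. Among genes of 10 to 100 CPM, the largest rises included CLDN1 (2.13) and CLGN (1.79), and the largest falls included CYTIP (-1.51). CLDN1, under 10 CPM in every control, entered this band only through the siARD1 libraries. CYTIP, under 10 CPM in every siARD1 library, entered it only through the controls. In the band of 100 to 1000 CPM, SEL1L, of ER-associated degradation, stood at 136, 146 and 150 CPM against 320, 320 and 335 (1.18, SE 0.06, edgeR adjusted p = 1.05e-08). PTGES3, the Hsp90 cochaperone p23, stood at 440, 281 and 296 CPM against 710, 773 and 769 (1.15, edgeR adjusted p = 0.00506). SREBF1 went down, from 456, 421 and 376 CPM to 190, 179 and 186 (-1.17). At 1000 CPM or more the changes were smaller, led upward by YWHAZ, a 14-3-3 protein gene (0.49), the brain-type glycogen phosphorylase gene PYGB (0.48) and the ferritin heavy chain gene FTH1 (0.44). Downward they were led by SCD (-1.04) and the aldehyde dehydrogenase gene ALDH3A1, which stood at 2168, 2183 and 2340.4 CPM against 1239.5, 1362 and 1079 (-0.86).

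At the ends of the GC scale the genes with the smallest p still passed with the offset. DNAJC10, an ER disulfide reductase gene with 37.4% GC, stood at 44.4, 46.1 and 48.8 CPM in the controls and at 106, 101 and 105 after siARD1 (1.16, and 0.67 with the offset). CLGN, a testis-type ER chaperone gene with 39.5% GC, stood at 13.4, 15.8 and 18.9 CPM against 52.0, 56.7 and 57.2 (1.79, and 1.62 with the offset). The chloride channel gene CLIC3, with 68.3% GC, stood at 35.9, 39.0 and 34.9 CPM against 15.2, 14.7 and 13.5 (-1.34, and -1.26 with the offset). The offset thus removed a large part of the change of DNAJC10 and little of the others. BCAT1, of branched-chain amino acid breakdown, has a transcript of 9674 bases and rose from 73.1 to 145 CPM (0.99, and 0.68 with the offset).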

How the data were processed

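RNA-seq counts of 12 libraries were analysed, of which the 6 labelled Hep-3B are the subject. Per the labels' protocols, Trizol RNA went through an rRNA removal kit and a directional library kit. The submitters' processing notes name cutadapt 4.6, STAR 2.7.11b and the build GRCh38. The authors deposited whole-number counts for each gene ID. Which program counted, with which annotation and strand option, is not given in the sources used here. Every column of values was mapped to a sample.

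The 6 libraries were fitted alone in R 4.3.3 with edgeR 4.0.16: filterByExpr (minimum count 10, minimum total 15), TMM factors, robust quasi-likelihood F-test, Benjamini-Hochberg threshold 0.05. SE was approximated by dividing the size of the log2 fold change by the root of F. CPM are TMM-scaled. The lines were compared by the interaction in one fit of 4 groups (17895 genes, 5322 called, 29.7%; in Huh-7 alone 6388 of 15919, 40.1%). P-values measure the spread between libraries as labelled, which may be technical. Single shares and slopes were tested by exact permutation over libraries.

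GC content, lengths, exons, second codons, classes and strand overlaps came from GENCODE 29, in which 23740 of 25720 genes were found. The longest transcript gave GC content and length, and the transcript with the longest coding sequence gave UTRs, whose GC content was taken from 100 bases up. The offset is a loess surface per library (span 0.3) on GC content and length. Promoters were matched by symbol to RefSeq windows.

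Members, the 23 gene lists, the 24 name families and motifs were chosen with earlier results of these data known. Named by rule were the NatA subunits, the 3 largest rises and falls per level band among non-overlapping protein-coding changes, 4 each among long non-coding genes, the 3 smallest p at each end of GC content and length, up to 4 members per list by p, the 4 largest line differences each way, and label markers. Other genes named in the accounts of gene lists, and the genes with an ER stress element, were chosen after their values were seen.

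Alternatives were RLE, upper-quartile and no factors, no filter, 1 CPM in 3 libraries, DESeq2 1.42.0, limma-voom (limma 3.58.1), all 12 libraries in one fit, a replicate block, the offset, stricter thresholds and each library left out. The steps were tested on simulated data. Python 3.11.15 with matplotlib 3.10.9 made the plots.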

Additional observations from a re-analysis of the deposited data

Results flagged for a closer look

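Some responses differed between the libraries labelled Hep-3B and Huh-7 by a test of the difference itself. Among shares of counts, the middle quintile of transcript GC content moved by -1.14 percentage points more, and the fourth by -1.76 more, in the libraries labelled Hep-3B than in Huh-7 (exact permutation within lines, adjusted p = 0.04 each over 16 shares). In both, the shares fell after siARD1 in the first line and rose in the second.

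For single genes the interaction was tested in one edgeR fit of 12 libraries, and the log2 differences below are those labelled Hep-3B minus Huh-7. The aldo-keto reductase gene AKR1B10 differed by -7.21 (edgeR adjusted p = 1.63e-08), and its libraries labelled Hep-3B stood at 308, 320 and 351 CPM with control siRNA against 240, 187 and 241 with siARD1. AKR1C2 differed by -2.56 (4.12e-18), the annexin gene ANXA1 by -3.07 (6.45e-14) and the oxidative stress gene OSGIN1 by -2.63 (2.15e-09). Of these 4, the change in Huh-7 was the larger: 6.67 for AKR1B10, from 0.161 to 15.4 CPM, 2.31 for AKR1C2, 2.95 for ANXA1 and 2.16 for OSGIN1, against -0.55, -0.26, -0.14 and -0.49. In Huh-7, AKR1B10 and ANXA1 reached the mean of 5 CPM only through the siARD1 libraries, with control means of 0.161 and 1.31 CPM. The size of both differences therefore rests on low controls. In the other direction differed SPX (2.86, adjusted p = 1.51e-06), the protocadherin gene PCDH1 (2.72, 1.25e-07), the secretory pathway gene IER3IP1 (2.65, 7.79e-06) and ICAM5 (2.38, 1.16e-08). SPX, PCDH1 and IER3IP1 rose in the libraries labelled Hep-3B, by 3.06, 1.36 and 1.81. ICAM5 and ANXA1 did not pass there (0.17 and -0.14, edgeR adjusted p = 0.424 and 0.125), so their differences rest on Huh-7, where ICAM5 changed by -2.20. ANXA1 passed without siARD1 library 3 (-0.21).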

How the results depend on the processing

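Of 180 values of the 15 main comparisons under alternatives, 163 stayed close to those reported. The genes called numbered 1385 (849 higher, 536 lower) at a fold of at least 1.5 and 3073 (1689, 1384) at a false discovery rate of 0.01. Upper-quartile factors turned the balance of calls, with 2341 higher and 2869 lower. Leaving out each library gave 3695 to 4922 (2011 to 2659 higher, 1684 to 2263 lower), and 4724 to 5466 for the interaction. Leaving out control 2 and siARD1 library 3 together, the libraries most extreme in GC content and chosen after seeing the data, gave 2904 (1585, 1319), of which 2784 were among the 5070 with the same sign. With the GC and length offset, rho was 0.0117 with GC content and -0.0161 with exon number, opposite in sign to the values reported, 0.00505 with transcript length and 0.0676 with 3′ UTR length, as the offset is built to do for GC content and length. Within protein-coding genes alone, rho turned to -0.00561 for mean level and -0.00916 for exon number, and the gene span gave 0.16 in place of transcript length. Without the 10 most abundant genes, the share of mitochondrially encoded genes moved by -0.21 percentage points in place of -0.58, and the cause was not tested. Over left-out libraries rho stayed within -0.31 to -0.25 for GC content, and the share of the lowest GC quintile differed by 2.16 to 2.65 points. Without single libraries the value of ICAM5, which did not pass, ran from -0.00444 to 0.363. Whether replicate numbers pair these libraries is not settled by the labels or the counts. Same-numbered deviations correlated weakly, at 0.03, 0.07 and 0.06, and differently numbered ones at -0.05 to -0.01, so each library correlated best with its own number. With the replicate block 5597 genes were called. GC content of the gene body was not run, as no genome was given. Limits: with 3 libraries a group, permutation p cannot go below 0.1, GC-dependent preparation and siARD1 cannot be told apart, and the identity of the line is in doubt.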
